A study of Mus musculus with 20 samples.

Results

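T cell genes were followed in bone marrow and kidney of mice given oxaliplatin. The 10 genes, found by their symbols in the raw count tables of both tissues, were Cd3d, Cd3e, Cd3g, Cd8a, Cd8b1, Lck, Cd28, Tcf7, Bcl11b and Foxp3, 10 of 55486 listed genes. A T cell reads antigen through a receptor whose antigen-binding chains pair with the invariant CD3 chains, which carry the signal into the cell. CD8 helps that receptor bind its target on other cells and brings the kinase LCK to it, while CD28 supplies a costimulatory signal. TCF1 (encoded by Tcf7) and BCL11B commit thymic progenitors to the T cell fate, and FOXP3 defines regulatory T cells. Most T cells mature in the thymus, and bone marrow mainly holds recirculating mature and memory cells, a small share of its leukocytes.

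RNA of C57BL/6 mice was measured in 4 groups of 5 libraries, 20 libraries in all: bone marrow after vehicle, bone marrow after oxaliplatin, kidney after vehicle and kidney after oxaliplatin. Oxaliplatin, a platinum drug that crosslinks DNA, was injected intraperitoneally for 8 weeks at 10 mg/kg in 5% dextrose, and the controls received 5% dextrose alone. Dosing began at an age of 10 weeks, and no engineered allele is named for any group. Marrow came from tibia and femur, collected 6 days after dosing ended. Whole tissue was used in both organs, without sorting, and the 2 tissues were extracted by different protocols, so that tissue and extraction cannot be told apart. Replicate numbers recur in both tissues, and whether a kidney and a marrow library came from the same mouse is not stated. Tests across the tissues treat the 20 libraries as independent unless a replicate block is named.

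Total counts ranged from 30660153 to 41140527 per library in bone marrow and from 24393007 to 30925430 in kidney. Values are given as CPM, counts scaled to a common library total with TMM factors, a correction for differences in library composition made within each tissue. At this scale 3 counts, taken as the detection floor, equalled 0.0668 to 0.0975 CPM in marrow and 0.0900 to 0.130 CPM in kidney, for counting error only. The kidney tubule markers summed to between 14400 and 18700 CPM in kidney and to at most 1.01 CPM in marrow. Ptprc, the pan-leukocyte gene encoding CD45, lay between 163 and 710 CPM in marrow and between 4.01 and 8.61 CPM in kidney. One marrow library stood apart: in oxaliplatin replicate 3, Ptprc was at 163 CPM against 343 to 619 CPM in the other 4 oxaliplatin-treated mice, and 9 of the 10 T cell genes had their lowest value of the group there. Marrow results below are therefore also given without this mouse where it changes them. It was picked partly by its low values of these same genes, so leaving it out raises their treated means. Such fits are no independent support for a rise. In whole tissue, fewer T cells and less of a transcript per T cell cannot be told apart.

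The 3 CD3 genes lie together on chromosome 9 (GRCm38, positions from the GENCODE mouse annotation, release 21). Cd3g (44969572 to 44980431, minus strand) and Cd3d (44981786 to 44987339, plus strand) are transcribed away from each other from starts separated by 1354 bases. Cd3e (44998740 to 45009627, minus strand) lies 11400 bases beyond Cd3d. Cd8b1 (71322788 to 71337494) and Cd8a (71373427 to 71379173) are neighbours on the plus strand of chromosome 6. Lck lies on chromosome 4 (129548344 to 129573641, minus strand), Cd28 on chromosome 1 (60716800 to 60773359, plus strand), Tcf7 on chromosome 11 (52252371 to 52283014, minus strand), Bcl11b on chromosome 12 (107910403 to 108003602, minus strand) and Foxp3 on chromosome X (7573644 to 7595245, plus strand). All are protein-coding genes, and the counts are of reads in their exons.

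Promoter windows of 300 bases, from 250 bases before to 50 after a start, were taken from RefSeq (GRCm38.p6). They were found for 8 of the 10 genes, in 11 windows, and not for Cd8b1 and Cd28. Those of the CD3 genes and of Lck are shown because the ratios between these genes are compared below, and because Lck has 2 starts. Capitals mark matches on either strand to short motifs that the ETS, TCF/LEF, GATA and RUNX families of transcription factors are known to bind, all with members in T cell development.
Cd3g, chr9:44980382-44980681, minus strand: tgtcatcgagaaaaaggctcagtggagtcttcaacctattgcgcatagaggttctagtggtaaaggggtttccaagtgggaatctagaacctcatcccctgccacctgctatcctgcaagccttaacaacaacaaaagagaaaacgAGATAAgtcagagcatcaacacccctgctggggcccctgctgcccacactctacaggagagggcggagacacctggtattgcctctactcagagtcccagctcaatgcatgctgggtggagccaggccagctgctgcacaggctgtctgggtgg
Cd3d, chr9:44981536-44981835, plus strand: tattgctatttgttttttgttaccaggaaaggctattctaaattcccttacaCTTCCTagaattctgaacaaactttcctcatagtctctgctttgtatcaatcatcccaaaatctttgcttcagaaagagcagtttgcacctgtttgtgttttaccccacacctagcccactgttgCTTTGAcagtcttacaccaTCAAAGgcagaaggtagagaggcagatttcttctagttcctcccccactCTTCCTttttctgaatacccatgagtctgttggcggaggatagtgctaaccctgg
Cd3e, chr9:45009562-45009861, minus strand: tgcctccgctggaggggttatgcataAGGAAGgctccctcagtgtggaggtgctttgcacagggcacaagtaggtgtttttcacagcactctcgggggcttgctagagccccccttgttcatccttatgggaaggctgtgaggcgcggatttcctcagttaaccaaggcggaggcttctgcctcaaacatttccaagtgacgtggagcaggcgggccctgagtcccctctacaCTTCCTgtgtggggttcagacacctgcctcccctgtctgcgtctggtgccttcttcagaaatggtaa
Lck, upstream start, chr4:129573592-129573891, minus strand: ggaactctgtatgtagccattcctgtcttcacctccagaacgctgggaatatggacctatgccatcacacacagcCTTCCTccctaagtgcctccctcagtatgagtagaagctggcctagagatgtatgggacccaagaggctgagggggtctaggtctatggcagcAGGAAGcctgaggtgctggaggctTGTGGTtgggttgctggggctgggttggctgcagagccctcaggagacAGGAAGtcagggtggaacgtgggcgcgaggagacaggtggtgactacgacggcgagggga
Lck, downstream start, chr4:129558323-129558622, minus strand: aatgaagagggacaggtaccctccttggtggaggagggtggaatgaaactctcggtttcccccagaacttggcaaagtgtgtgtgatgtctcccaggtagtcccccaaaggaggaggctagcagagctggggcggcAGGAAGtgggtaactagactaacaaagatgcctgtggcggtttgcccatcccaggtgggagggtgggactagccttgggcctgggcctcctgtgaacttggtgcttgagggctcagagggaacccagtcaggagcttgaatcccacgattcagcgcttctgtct

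The ETS motif was searched as AGGAAG and occurred in 6 of the 11 windows of T cell genes and in 35.4% of all 32851 windows of this length. The TCF/LEF motif, searched as CTTTGA, occurred in 2 of 11 windows against 16.0% of all. For the GATA motif, searched as AGATAA, it was 2 of 11 windows against 11.2% of all. For the RUNX motif, searched as TGTGGT, it was 1 of 11 windows against 16.8% of all. Both Cd3d and Cd3e held 2 ETS matches, Cd3d held 2 TCF/LEF matches, and Cd3g held a GATA match alone. The upstream Lck window held 3 ETS matches and the RUNX match, and the downstream window 1 ETS match. Among windows not shown, those of Tcf7, that of Cd8a and 1 of Foxp3 held no match to any of these motifs. The median GC content was 54.0% over the 11 windows and 52.7% over all windows. These matches describe the letters only.

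In bone marrow of vehicle-treated mice, the T cell genes were low but counted in every library. Per 1000 bases of exon, Tcf7 was highest at 4.46 ± 0.50 CPM (SD, n = 5), followed by Lck at 3.71 ± 0.414, and these overlapped between mice. Cd8b1 (2.41 ± 0.437) lay below Lck in every mouse. Cd3d (1.52 ± 0.533), Cd3e (1.24 ± 0.179), Cd8a (1.10 ± 0.265), Cd3g (0.842 ± 0.194), Foxp3 (0.778 ± 0.217), Bcl11b (0.599 ± 0.141) and Cd28 (0.530 ± 0.0832) followed, each overlapping its neighbour in this order. In vehicle kidney the order was different: Bcl11b led at 1.74 ± 0.236 CPM per 1000 bases, above every other gene in every mouse, and the CD3, CD8 and CD28 genes lay at or below 0.333.

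Between the tissues of vehicle-treated mice, 5 of the 6 T cell genes that passed the count filter in both tissues were lower in kidney and 1, Bcl11b, was higher. The test was edgeR's quasi-likelihood test on the 20 libraries scaled together, with Benjamini-Hochberg adjusted p values, and 80.7% of the 24321 genes tested passed an adjusted p of 0.05. Lck was 5.91-fold lower in kidney (log2 difference −2.56, SE 0.20, adjusted p = 3.80e-11) and Tcf7 5.61-fold (−2.49, SE 0.23, adjusted p = 6.62e-10). Foxp3 was 3.24-fold, Cd3e 2.77-fold and Cd8a 2.69-fold lower, with adjusted p values of at most 0.000166. Bcl11b was 3.91-fold higher in kidney (log2 difference 1.97, SE 0.21, adjusted p = 1.21e-08). Scaled within vehicle kidney, it was at 14.1 ± 1.91 CPM (SD, n = 5), above both Cd3e (1.36 ± 0.45) and the pan-leukocyte gene Ptprc (6.92 ± 1.0). Which kidney cells carried Bcl11b was not tested, so its kidney values are not read as a T cell level. The other 4 genes, Cd3d, Cd3g, Cd8b1 and Cd28, had at most 20 counts in any vehicle kidney library and passed the joint filter through marrow, so no fold is given for them.

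**Figure D1:**
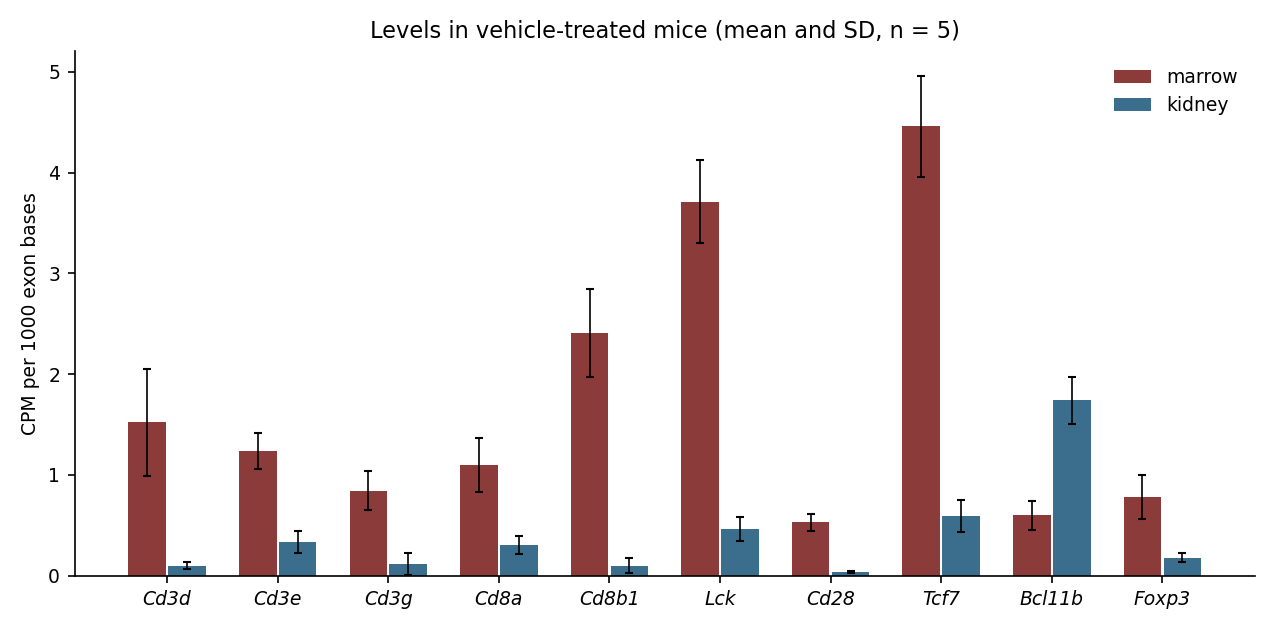
Level of each T cell gene in vehicle-treated mice, in CPM per 1000 exon bases (vertical axis), for bone marrow and kidney, scaled within each tissue. Bars are means and lines are SDs over 5 mice; Bcl11b is the 1 gene whose kidney bar (1.74) exceeds its marrow bar (0.599).

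In bone marrow after oxaliplatin, none of the 10 T cell genes passed the criteria used for a call, which required both a difference beyond 1.5-fold and an adjusted p below 0.05. Of the 22363 genes tested in that tissue, 23.3% did. 2 T cell genes passed the adjusted p alone, Cd28 (higher) and Lck (lower), against 33.1% of all genes, and 3 had an unadjusted p under 0.05 in edgeR. DESeq2 called 2, Cd28 and Bcl11b. The 10 estimates divided evenly, 5 higher and 5 lower, with a median log2 change of 0.03 against −0.04 over all genes tested. In all 10 genes the values of the 2 groups overlapped, whereas 24.9% of tested genes had groups that did not.

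None of the CD3 chains passed the adjusted p in marrow. Cd3e, the chain most used to identify T cells, was at 5.32, 5.82, 3.91, 4.90 and 5.43 CPM in the 5 vehicle-treated mice and at 8.56, 7.68, 4.06, 6.50 and 6.28 CPM in the 5 oxaliplatin-treated mice. 4 of the 5 treated mice thus lay above every control, and the exception was replicate 3. The log2 change was 0.38 (SE 0.20, 95% interval −0.06 to 0.82, adjusted p = 0.173), and without replicate 3 it was 0.51 with an adjusted p of 0.0263. Of 19 alternatives, Cd3e passed the adjusted p in marrow in 1, the fit without that mouse. Cd3g was at 2.56, 2.27, 2.58, 2.48 and 3.87 CPM with vehicle and at 3.60, 4.39, 2.80, 3.38 and 3.94 CPM with oxaliplatin. All controls but replicate 5 lay below every treated mouse, and the log2 change was 0.39 (SE 0.21, interval −0.05 to 0.84, adjusted p = 0.164). Cd3d was at 1.93, 3.40, 1.73, 4.02 and 2.70 CPM with vehicle and at 3.49, 2.38, 1.31, 2.27 and 2.72 CPM with oxaliplatin. The Cd3d groups overlapped over most of their range, with a log2 change of −0.18 (SE 0.30, interval −0.83 to 0.46, adjusted p = 0.683). A 135-base stretch of Cd3e exon is shared with an antisense transcript, Gm48719, which had 0 to 8 counts per marrow library.

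The CD8 coreceptor genes, whose products form the alpha-beta dimer of cytotoxic T cells, overlapped almost completely between the groups. Cd8a was at 2.44, 4.36, 3.75, 4.65 and 4.81 CPM with vehicle and at 5.21, 4.76, 3.85, 3.78 and 4.66 CPM with oxaliplatin. Cd8b1 was at 2.72, 4.02, 4.22, 3.05 and 3.83 CPM with vehicle and at 4.15, 4.14, 2.19, 2.20 and 3.48 CPM with oxaliplatin. The log2 changes were 0.15 for Cd8a (SE 0.21, interval −0.29 to 0.60, adjusted p = 0.614) and −0.15 for Cd8b1 (SE 0.24, interval −0.66 to 0.37, adjusted p = 0.685). In fold terms the intervals ran from 0.818 to 1.51 for Cd8a and from 0.632 to 1.29 for Cd8b1.

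The kinase Lck and the costimulatory receptor Cd28 moved in opposite directions. Lck, whose product phosphorylates the CD3 chains once the receptor is engaged, was at 8.96, 10.9, 11.6, 12.1 and 10.7 CPM with vehicle and at 9.3, 9.5, 6.2, 7.90 and 8.06 CPM with oxaliplatin. 4 of 5 controls lay above every treated mouse. The log2 change was −0.41 (SE 0.15, interval −0.72 to −0.09, adjusted p = 0.0468), a 1.33-fold fall, and without oxaliplatin replicate 3 it was −0.32 with an adjusted p of 0.0746. Cd28 was at 3.01, 3.52, 4.00, 2.76 and 2.92 CPM with vehicle and at 4.90, 4.76, 3.52, 5.74 and 5.07 CPM with oxaliplatin. 4 of 5 treated mice lay above every control, and the log2 change was 0.56 (SE 0.19, interval 0.16 to 0.96, adjusted p = 0.0321), a 1.48-fold rise. Without oxaliplatin replicate 3, the treated mouse with the lowest Cd28, it was 0.66 with an adjusted p of 0.00943, past both criteria. Leaving out 1 library at a time ended either result in 7 of 10 cases: for Lck these were vehicle replicates 2 to 5 and oxaliplatin replicates 3 to 5, with adjusted p values of up to 0.103. For Cd28 they were vehicle replicates 1, 2, 4 and 5 and oxaliplatin replicates 1, 2 and 4, with adjusted p values of up to 0.0785.

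Of the transcription factors, Bcl11b had the largest estimate and Tcf7 and Foxp3 had estimates near 0. Bcl11b, which maintains T cell identity, was at 3.35, 4.45, 4.79, 5.19 and 6.50 CPM with vehicle and at 9.88, 7.49, 3.36, 8.28 and 10.6 CPM with oxaliplatin. 4 treated mice lay above every control, while replicate 3 was at the level of the lowest control. The log2 change was 0.70 (SE 0.28, interval 0.11 to 1.3, adjusted p = 0.0667), and without replicate 3 it was 0.90 with an adjusted p of 0.00189, past both criteria. Over 19 alternatives, Bcl11b passed the adjusted p in 3. Tcf7, a mediator of WNT signalling that also marks naive and memory T cells, was at 9.97, 11, 12.6, 11.7 and 13.3 CPM with vehicle and at 15.6, 12.5, 6.83, 9.39 and 10.6 CPM with oxaliplatin. The treated mice spread wider, on both sides of the controls, and the log2 change was −0.09 (SE 0.19, interval −0.51 to 0.32, adjusted p = 0.749). Foxp3 was at 4.37, 3.40, 2.74, 2.51 and 4.78 CPM with vehicle and at 4.84, 3.07, 1.38, 3.94 and 3.40 CPM with oxaliplatin, with a log2 change of −0.10 (SE 0.30, interval −0.76 to 0.56, adjusted p = 0.838). The signs of the Tcf7 and Foxp3 estimates were positive without replicate 3 (0.04 and 0.10) and with scaling by library size alone (0.05 and 0.04).

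Foxp3 counts are uncertain, since its exons share bases with 4 other genes: 853 with Flicr on the same strand, and 590 with Ccdc22, 373 with Gm36995 and 266 with Ppp1r3f on the opposite strand. The strand setting of the counting is not given in the sources used here. Ccdc22, a gene most cells use, was listed at 0 in all 20 libraries. In marrow Flicr was at 1.05 ± 0.552 CPM with vehicle and 0.914 ± 0.495 CPM with oxaliplatin (SD, n = 5), and Ppp1r3f at 3.81 ± 0.982 and 2.70 ± 0.377 CPM. Neither passed the adjusted p there.

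**Figure D2:**
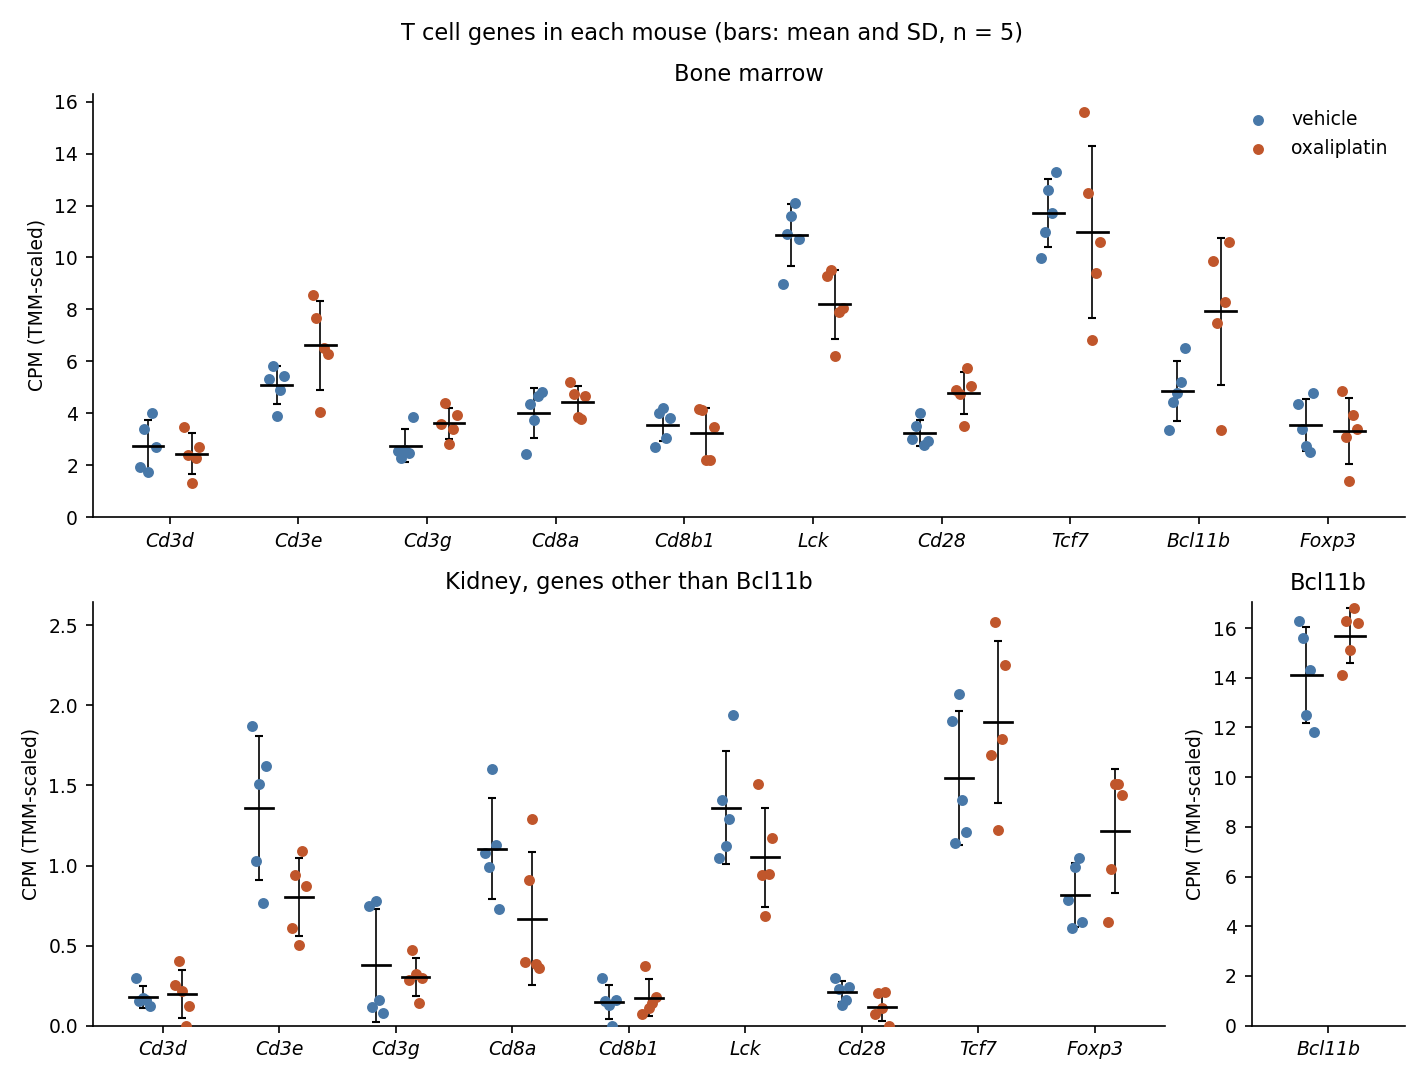
CPM (vertical axes, TMM-scaled) of the 10 T cell genes in each mouse, with bone marrow above and kidney below, where Bcl11b has an axis of its own. Points are mice, black bars are means and lines are SDs (n = 5); the groups overlap for every gene in both tissues, and the lowest treated point of 9 marrow genes is the same mouse.

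**Figure D3:**
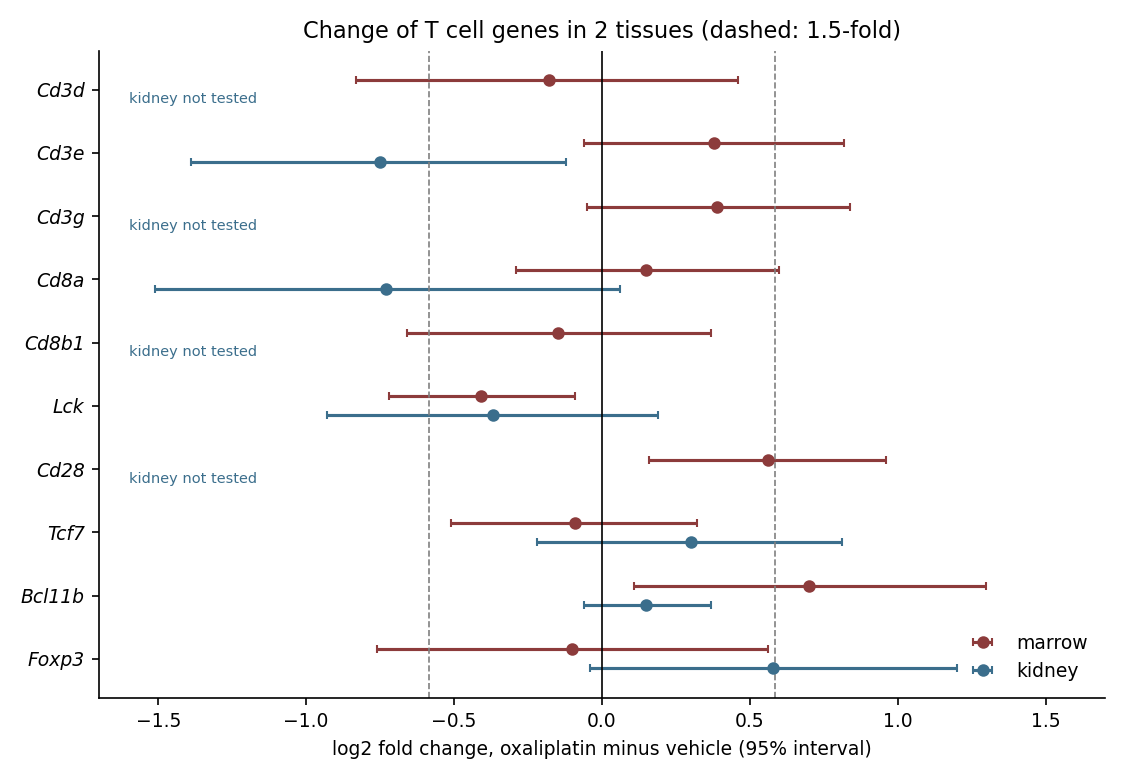
Log2 fold change, oxaliplatin minus vehicle (horizontal axis), with 95% intervals for each T cell gene in bone marrow and kidney. Dashed lines mark 1.5-fold; in marrow the estimates run from −0.41 (Lck) to 0.70 (Bcl11b), and Cd3d, Cd3g, Cd8b1 and Cd28 were not tested in kidney.

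Ratios between genes within a mouse do not depend on the scaling of the library. For each mouse the log2 CPM (prior count of 2) of Cd3e was subtracted from that of each other T cell gene, and groups were compared with an exact two-sided permutation test over every way of dividing the 10 mice evenly, which cannot give a p below 0.00794. With 12 ratios in marrow and 6 in kidney, 6 of 18 had an adjusted p under 0.05. The adjustment ran over all 18 together, including the ratios of Cd3e to Ptprc, Cd79a and Ncr1 given below. Those in marrow stood at the smallest possible p, so the adjusted p values of the other ratios depend on them. An adjustment over the ratios to Cd3e alone was not made. In bone marrow, Lck fell relative to Cd3e by 0.76 on the log2 scale (exact permutation p = 0.00794, adjusted p = 0.0286): the ratio was between 0.75 and 1.56 in the 5 controls and between 0.12 and 0.61 in the 5 treated mice. Tcf7 fell relative to Cd3e by 0.49 (exact permutation p = 0.00794, adjusted p = 0.0286), from 0.90 to 1.67 in controls to 0.53 to 0.86 in treated mice. In both, the groups did not overlap, so the mouse with low values throughout kept the ratio of its group. Leaving out 1 mouse gave changes of −0.85 to −0.64 for Lck and −0.56 to −0.37 for Tcf7, and the adjusted p was above 0.05 in 4 and 5 of 20 cases, all without a treated marrow mouse. Tested alone in edgeR, the log2 changes were −0.41 for Lck, −0.09 for Tcf7 and 0.38 for Cd3e, and of these only Lck passed the adjusted p. Which cells of the unsorted marrow carried Lck and Tcf7 was not tested, so neither fall is read as a change within T cells. In the same libraries 4 of 9 NK cell genes and all 8 B cell genes were called lower, and none higher. Of all tested genes, 11.8% were called lower and 11.6% higher. The part of NK and B cells in the Lck and Tcf7 ratios was not tested.

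The other ratios to Cd3e overlapped between the groups in marrow. Cd3d and Cd8b1 were lower relative to Cd3e by 0.52 and 0.53, each with an exact permutation p of 0.0317 and an adjusted p of 0.0571. The difference for Foxp3 was −0.51 (exact permutation, adjusted p = 0.104), and those for Cd3g (0.05), Cd8a (−0.17), Cd28 (0.20) and Bcl11b (0.28) were smaller, with adjusted p values of 0.44 to 0.84 in the same permutation test. The mean log2 ratio of Cd3g to Cd3e was −0.88 ± 0.35 with vehicle and −0.83 ± 0.27 with oxaliplatin (SD, n = 5).

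Against the pan-leukocyte gene and against 1 chosen gene each of NK and B cells, Cd3e rose in marrow. Relative to Ptprc it rose by 1.05 on the log2 scale, from a range of −7.21 to −6.64 in controls to −6.61 to −5.31 in treated mice. Relative to Ncr1, the NK cell receptor NKp46, it rose by 1.40, and relative to Cd79a, a chain of the B cell receptor, by 2.53. Each had an exact permutation p of 0.00794 and an adjusted p of 0.0286, with groups that did not overlap, and each stayed below 0.05 when any 1 mouse was left out. The NK cell genes were not alike: Ncr1 itself fell by 1.00 (adjusted p = 0.00860), whereas the log2 changes of Gzma (0.50), Nkg7 (0.09) and Prf1 (−0.08), cytotoxic genes that T cells also use, did not pass the adjusted p. Klrb1c (−0.73, adjusted p = 0.102) and Klrd1 (−0.72, adjusted p = 0.0771) did not pass either, with estimates below 0. The Gzma estimate was above the 0.38 of Cd3e, and ratios of Cd3e to NK cell genes other than Ncr1 were not tested. Ptprc itself was at 597 ± 69.2 CPM with vehicle and 402 ± 174 CPM with oxaliplatin (SD, n = 5), with a log2 change of −0.57 and an adjusted p of 0.128 in edgeR.

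**Figure D4:**
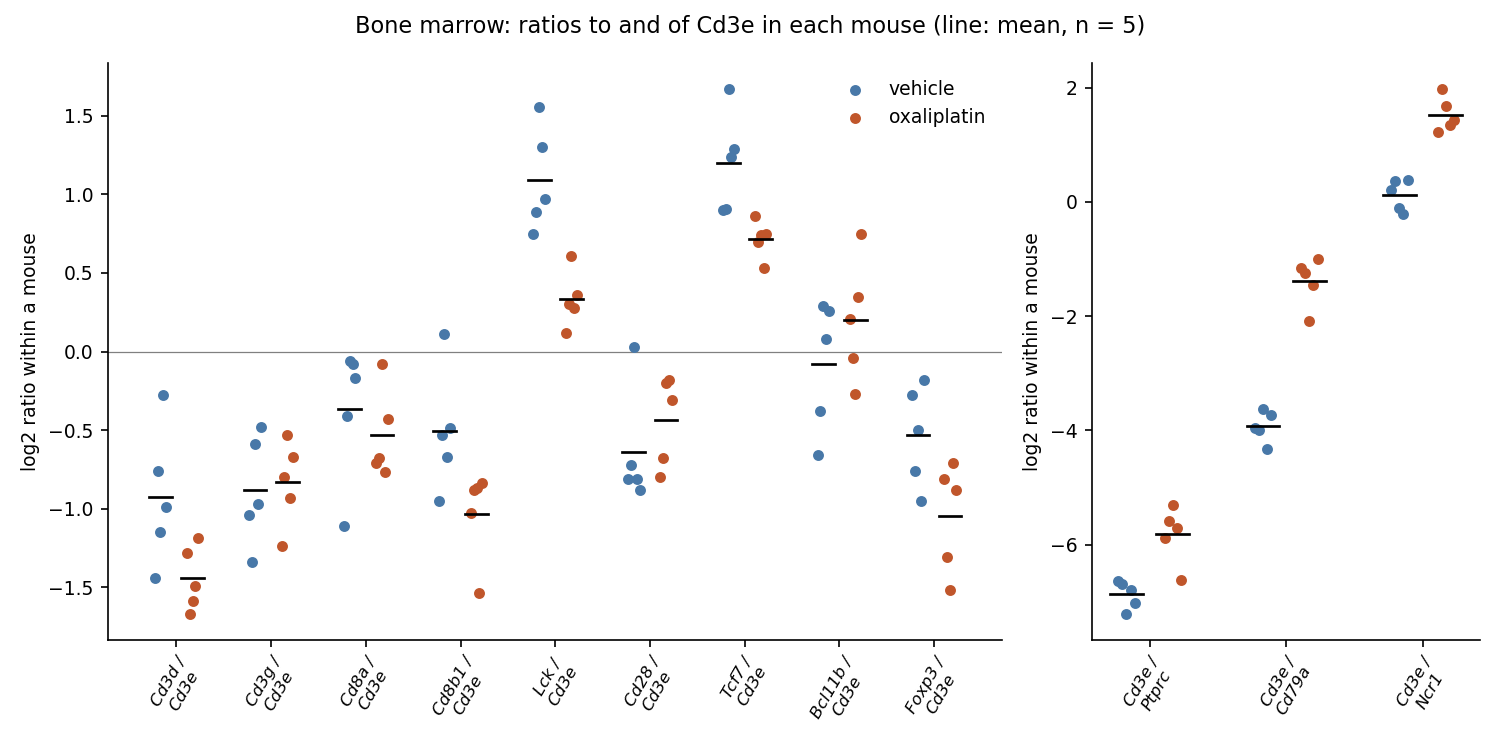
Log2 ratio within each mouse in bone marrow (vertical axes), of the other T cell genes to Cd3e at the left and of Cd3e to Ptprc, Cd79a and Ncr1 at the right. Points are mice and lines are means (n = 5); the groups separate for Lck, Tcf7 and all 3 ratios at the right.

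In kidney 6 of the 10 T cell genes had enough counts to be tested, from Bcl11b at 290 to 539 counts per library down to Cd8a at 11 to 37. None of the 6 was called in edgeR or in DESeq2, against 11.5% of the 19293 genes tested, none passed the adjusted p alone (29.4% of all genes), and 1, Cd3e, had an unadjusted p under 0.05. All 6 groups overlapped, while 20.7% of tested genes had groups that did not. Of the 4 untested genes, Cd3d had 3 to 8 counts per library with vehicle and 0 to 12 with oxaliplatin, Cd3g 2 to 20 and 4 to 14, Cd8b1 0 to 8 and 2 to 11, and Cd28 3 to 8 and 0 to 6. The libraries at 0 allow up to 0.105 CPM for Cd3d (oxaliplatin replicate 4), 0.121 CPM for Cd8b1 (vehicle replicate 4) and 0.0900 CPM for Cd28 (oxaliplatin replicate 5), the value of 3 counts. These 4 genes were left out by the filter, and no difference is read from them.

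Cd3e in kidney was at 1.87, 1.03, 1.51, 0.765 and 1.62 CPM with vehicle and at 0.610, 0.943, 0.503, 1.09 and 0.870 CPM with oxaliplatin. 3 of the 5 controls lay above every treated mouse. The log2 change was −0.75 (SE 0.30, interval −1.39 to −0.12, adjusted p = 0.0682), and it was −0.90 with an adjusted p of 0.0333 without vehicle replicate 4, the lowest control. Cd8a was at 1.08, 0.991, 1.60, 1.13 and 0.729 CPM with vehicle and at 0.395, 0.909, 1.29, 0.386 and 0.360 CPM with oxaliplatin. 3 treated mice lay below every control and 1, replicate 3, near the top of their range. The log2 change of Cd8a was −0.73 (SE 0.37, interval −1.51 to 0.06, adjusted p = 0.156), or −1.10 with an adjusted p of 0.0327 without that mouse. Of 19 alternatives, Cd3e and Cd8a each passed the adjusted p in kidney in 1, the fit given here. Lck was at 1.05, 1.41, 1.12, 1.29 and 1.94 CPM with vehicle and at 1.51, 0.943, 0.683, 0.947 and 1.17 CPM with oxaliplatin, a log2 change of −0.37 (SE 0.27, adjusted p = 0.311).

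The transcription factors in kidney had estimates above 0. Bcl11b, at 16.3, 15.6, 12.5, 14.3 and 11.8 CPM with vehicle and 14.1, 16.3, 15.1, 16.8 and 16.2 CPM with oxaliplatin, was measured best, with a log2 change of 0.15 (SE 0.10, interval −0.06 to 0.37, adjusted p = 0.267). Tcf7 was at 1.90, 1.14, 2.07, 1.41 and 1.21 CPM with vehicle and at 1.69, 2.52, 1.22, 1.79 and 2.25 CPM with oxaliplatin, a log2 change of 0.30 (SE 0.24, adjusted p = 0.385). Foxp3 was at 0.784, 0.610, 0.994, 1.05 and 0.648 CPM with vehicle and at 0.646, 0.976, 1.51, 1.51 and 1.44 CPM with oxaliplatin, and 3 treated mice lay above every control. Its log2 change was 0.58 (SE 0.29, interval −0.04 to 1.20, adjusted p = 0.149). Beside it, the overlapping transcript Flicr was at 0.108 ± 0.103 CPM with vehicle and 0.489 ± 0.137 CPM with oxaliplatin (SD, n = 5). Flicr had 0 to 6 counts per control library, with 2 libraries at 0, and 11 to 24 per treated library. It passed the count filter through the treated group alone, so no test of it is read. The part of Flicr in the Foxp3 counts was not tested. Within a mouse, Tcf7 rose relative to Cd3e by 0.97 on the log2 scale in kidney (exact permutation p = 0.0159, adjusted p = 0.0476), and the adjusted p was above 0.05 in 13 of 20 cases with 1 mouse left out. Foxp3 and Bcl11b were higher relative to Cd3e by 1.19 and 0.85, each with an adjusted p of 0.0571 in the same exact test. Cd3e relative to Ptprc differed by −0.24 in kidney (exact permutation, adjusted p = 0.543).

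The response of Cd3e differed between the tissues. Whether the treatment effect depended on tissue was tested in all 20 libraries together, where 30.1% of the 24321 genes tested passed. All 10 T cell genes entered that test, but Cd3d, Cd3g, Cd8b1 and Cd28 passed its filter on low counts only through marrow. Cd3e had a kidney effect 1.18 lower than its marrow effect on the log2 scale (difference −1.18, SE 0.35, adjusted p = 0.0137), with an estimate above 0 in marrow and below 0 in kidney. Its adjusted p lay between 0.00384 and 0.0354 over 25 alternatives, and it was 0.0213 with a replicate block that took same-numbered kidney and marrow libraries as 1 mouse. For Cd28 the difference was −1.48 (SE 0.54, adjusted p = 0.0407), a value that rests on at most 8 kidney counts per library. It passed the threshold in 12 of 25 alternatives (adjusted p values of 0.0156 to 0.0948) and is not counted as a difference here. The differences for Cd8a (−0.93, SE 0.43, adjusted p = 0.107) and Bcl11b (−0.59, SE 0.29, adjusted p = 0.128) did not pass. Without kidney oxaliplatin replicate 3 that of Cd8a was −1.31 (adjusted p = 0.0165), and without marrow oxaliplatin replicate 3 that of Bcl11b was −0.77 (adjusted p = 0.00570). For Cd8a and for Bcl11b the difference passed in 1 of 25 alternatives. That of Lck was −0.02 (SE 0.26, adjusted p = 0.980), and its sign differed between scalings (0.02 with library size alone).

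Other genes of T cells were taken in 5 lists. Of 9 antigen receptor chain genes 8 were tested in marrow, 1 was called higher and 1 lower (median log2 change 0.05), where 11.6% of all tested genes were called higher and 11.8% lower. Trac, the constant region of the alpha chain, was at 3.80 ± 0.689 CPM with vehicle and 4.89 ± 0.836 CPM with oxaliplatin (SD, n = 5, log2 change 0.36, adjusted p = 0.164). Both called genes were constant regions of the gamma chain, used by gamma-delta T cells, and they went in opposite directions. Trgc1 (chromosome 13, 19214103 to 19217024) was at 0.127, 0.553, 0.378, 0.627 and 0.0650 CPM with vehicle and at 3.05, 8.59, 7.39, 4.83 and 4.45 CPM with oxaliplatin. Every treated mouse lay above every control, and the log2 change was 3.98 (SE 0.49, interval 2.93 to 5.04, adjusted p = 4.33e-05), a 15.8-fold rise. Trgc4 fell from 0.634 ± 0.196 to 0.197 ± 0.0983 CPM (log2 change −1.66, SE 0.42, adjusted p = 0.00750), without overlap, but not with the level of Y-linked genes as a covariate (adjusted p = 0.0617). Trgc2 was at 0.685 ± 0.301 and 0.723 ± 0.351 CPM, and Trdc, the delta chain, at 1.11 ± 0.316 and 0.448 ± 0.413 CPM (adjusted p = 0.0507). Trgc1 and Trgc2 are close copies of each other, so that their counts are uncertain, and Trgc1 had 2 to 22 counts per control library. Trgc4 counts were low, at 13 to 27 per control library and 4 to 12 per treated library. Both Trgc1 and Trgc4 passed the count filter through the group where they were higher.

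Of 12 receptor signalling genes 11 were tested in marrow, 3 were called higher (11.6% of all tested genes) and none lower (11.8%), with a median log2 change of 0.23 against −0.04 over all genes. The largest rises were those of Themis, needed for thymocyte selection (1.24 ± 0.524 to 3.29 ± 0.896 CPM, log2 change 1.40, adjusted p = 0.00404), and Lat, the adaptor downstream of the receptor (29.9 ± 3.90 to 69.7 ± 15.7 CPM, log2 change 1.22, adjusted p = 3.37e-05). Per 1000 exon bases Lat was at 10.8 CPM with vehicle, against 1.24 for Cd3e, and it is also known in mast cells and platelets. Of 12 coreceptor and costimulation genes, all tested, 4 were called higher and 3 lower, against the same 11.6% and 11.8%, with a median of 0.76. Pdcd1, the inhibitory receptor PD-1, was at 0.281 ± 0.174 CPM with vehicle and 1.24 ± 0.462 CPM with oxaliplatin (log2 change 2.13, adjusted p = 0.00314), and the groups overlapped. Pdcd1 counts were low, at 4 to 18 per control library and 18 to 72 per treated library. It passed the count filter through the treated group, so its test is no independent support for a rise. Cd6 rose from 3.77 ± 0.831 to 7.26 ± 2.96 CPM (log2 change 0.94, adjusted p = 0.0350). The Cd6 call was lost without any of vehicle replicates 1, 2, 3 and 5 and oxaliplatin replicates 2, 4 and 5 (adjusted p up to 0.0894).

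Cd4, the coreceptor of helper T cells, had the largest fall of that list. It was at 66.7, 73.7, 98.7, 89.8 and 64.3 CPM with vehicle and at 26.2, 36.6, 23.1, 34.1 and 22.5 CPM with oxaliplatin, with no overlap (log2 change −1.47, SE 0.17, adjusted p = 2.21e-05). Its level per exon length was well above that of the CD3 genes: 19.5 CPM per 1000 bases with vehicle, against 1.24 for Cd3e. Plasmacytoid dendritic cells, which also carry CD4, had their defining gene Siglech fall from 31.4 ± 3.32 to 4.44 ± 0.819 CPM (log2 change −2.82), and 3 of 5 genes of their list were called lower. The part of these cells in the Cd4 result was not tested. Cd2, an adhesion receptor of T and NK cells and of developing B cells in mice, fell from 11.7 ± 2.26 to 4.39 ± 1.40 CPM (log2 change −1.42, adjusted p = 4.95e-04).

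Among 10 further transcription factors of T cells, all tested in marrow (median log2 change −0.14), Lef1, a relative of TCF1, fell from 13.7 ± 3.68 to 7.69 ± 2.04 CPM (log2 change −0.83, adjusted p = 0.0118, or 0.0841 with the Y-linked covariate). Of 9 cytokine and homing receptors 8 were tested, and 3 were called lower and none higher (median −0.63). Il2ra, the alpha chain of the interleukin-2 receptor, fell from 8.21 ± 2.47 to 1.59 ± 0.564 CPM (log2 change −2.36, adjusted p = 5.08e-05), and Il7r, which T cells share with early B cells, from 33.0 ± 6.92 to 10.8 ± 2.10 CPM (−1.62, adjusted p = 1.72e-05). Lef1, Il7r and Il2ra are also used by B cell precursors, and all 8 B cell genes were called lower, against 11.8% of tested genes in that direction, with log2 changes of −2.82 to −1.01. The B cell list summed to between 332 and 563 CPM with vehicle and between 106 and 145 CPM with oxaliplatin. Of 9 NK cell genes 4 were called lower and none higher, and the list summed to 55.7 to 76.9 CPM with vehicle and 44.2 to 84.8 CPM with oxaliplatin. The part of B and NK cells in these results was not tested.

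Adipocyte and macrophage genes moved the other way in the same libraries. All 5 adipocyte genes were called higher, against 11.6% of tested genes in that direction, from a summed 72.5 to 131 CPM with vehicle to 368 to 1470 CPM with oxaliplatin, and 4 of 6 macrophage genes were called higher and none lower. Of 5 conventional dendritic cell genes 2 were called lower. All 5 erythroid genes were called lower, from a summed 22400 to 39800 CPM to 2670 to 7240 CPM. Since CPM are shares of a library, a T cell gene at the same CPM in both groups has the same share of RNA, not the same amount.

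**Figure D5:**
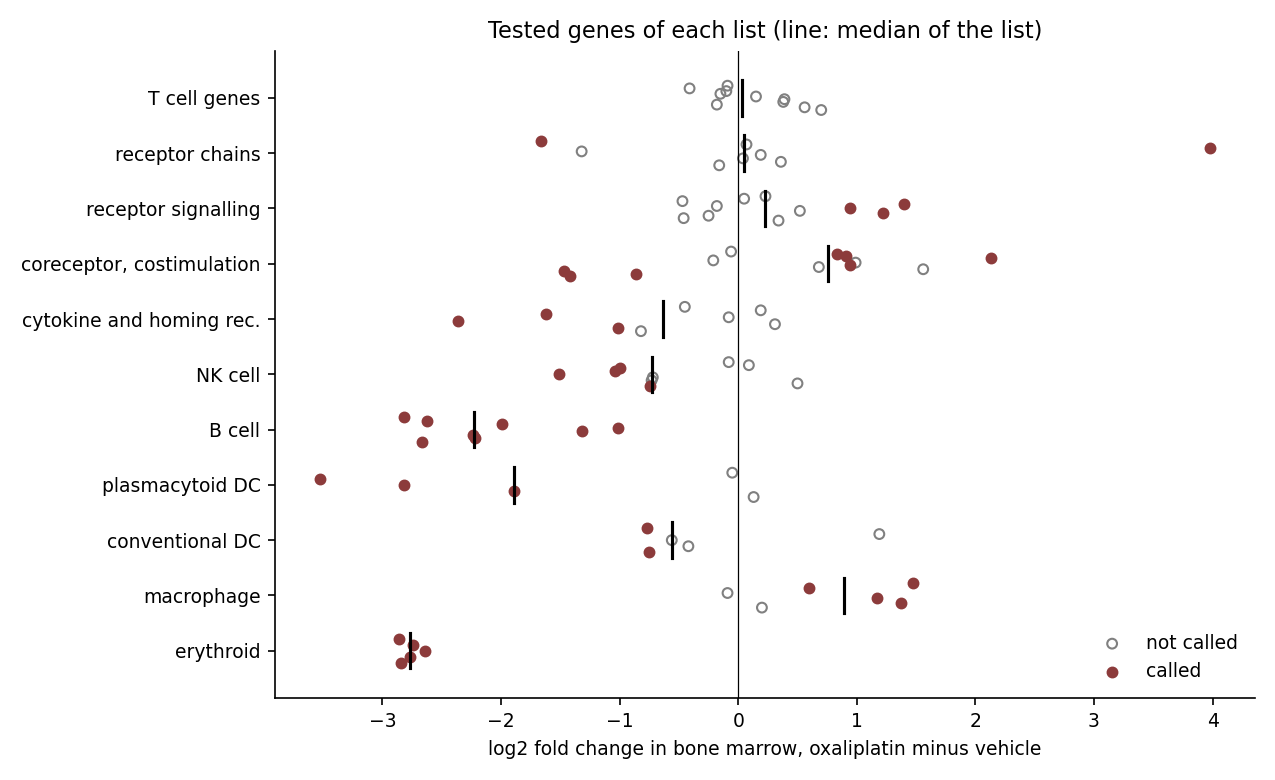
Log2 fold change in bone marrow, oxaliplatin minus vehicle (horizontal axis), of every tested gene in lists of T cell genes and of other cell types (rows). Filled points were called, open points were not, and black lines are list medians; the 10 T cell genes surround 0 (median 0.03), while the B cell (−2.23) and erythroid (−2.77) medians lie far below it.

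Among the same lists in kidney, Trac fell from 1.17 ± 0.454 to 0.576 ± 0.117 CPM (SD, n = 5, log2 change −1.01, SE 0.32, adjusted p = 0.0226), the same direction as the estimate for Cd3e. That call was lost without vehicle replicate 3 (adjusted p = 0.0644), vehicle replicate 5 (0.0845) or oxaliplatin replicate 5 (0.0561). Tnfrsf18, encoding the costimulatory receptor GITR, rose from 1.82 ± 0.288 to 2.90 ± 0.711 CPM (0.67, adjusted p = 0.0218), and was lost without vehicle replicate 5 (0.0616) or oxaliplatin replicate 5 (0.0578). S1pr1, a receptor for lymphocyte egress that endothelium also carries, rose from 10.6 ± 1.5 to 19.3 ± 5.54 CPM (0.87, adjusted p = 0.00177). Only 2 of 9 chain genes, 9 of 12 signalling genes, 6 of 12 coreceptor genes, 9 of 10 factors and 3 of 9 receptors could be tested there. Ptprc was at 6.92 ± 1.00 and 5.12 ± 1.35 CPM (log2 change −0.44, adjusted p = 0.0560), and 4 macrophage genes were called lower and 1 higher of 5 tested, against 11.5% of all kidney genes called in either direction. Of the NK cell genes 0 of 9 and of the B cell genes 4 of 8 were tested in kidney.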

How the data were processed

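RNA of unsorted marrow and kidney was sequenced, with 5 libraries for each tissue and treatment. RNA with an integrity number above 7 was used; the methods name a SMARTer kit, while the sample records name ribosomal RNA depletion with random-hexamer priming. The authors ran STAR against Ensembl release 101 and deposited raw counts per gene, made from uniquely aligned unambiguous reads, without normalization; the submitters' processing notes also list featureCounts and Salmon. Reads shared by overlapping genes are not assigned by such counting, and the strand setting is not given in the sources used here. In both tissues, 287 repeated lines and 1 incomplete line were dropped, and 55486 genes remained. Groups and replicate numbers came from the sample titles.

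Per tissue, genes were filtered with filterByExpr (minimum count 10), and TMM factors computed; edgeR 4.0.16, with limma 3.58.1 under R 4.3.3, gave two-sided quasi-likelihood tests (robust option) and Benjamini-Hochberg adjusted p values over all tested genes; adjusted p values are from this test unless another is named. TMM factors were 0.894 to 0.992 with vehicle and 1.03 to 1.11 with oxaliplatin in marrow. The interaction and the vehicle tissue difference were fitted on 20 libraries scaled together. Intervals are 95% intervals of the log2 change. Nothing states that libraries came from separate cages or days, and p values measure the spread between these mice. Named genes were all 10 T cell genes, up to 2 largest called rises and falls per other T cell list and tissue, defining markers, and the 5 genes most similar to Cd3e; Flicr, Ccdc22, Ppp1r3f, Gm36995, Gm48719, Trgc2, Trdc and the Trac value in marrow were added after their values were seen. A gene that this rule also named is not reported here. The genes, lists and tests were chosen with earlier results of these data known. Alternatives were DESeq2 1.42.0, its size factors, library size alone, hemoglobin genes left out, other filters and a test against 1.5-fold. Another took the mean log2 CPM of the Y-linked genes as covariate. The rest were a replicate block, TMM within each tissue, a prior count of 0.5 and each library left out. Steps were tested on simulated data. Figures used Python 3.11.15 and matplotlib 3.10.9.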

Additional observations from a re-analysis of the deposited data

Results flagged for a closer look

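1 of 32 combinations of gene, tissue and treatment (tested genes only) held a mouse far from the other 4 of its group. It was Cd3g in bone marrow, at 3.87 CPM in vehicle replicate 5 against 2.58 CPM in the next highest control; such a gap arises by chance in about 1 in 20 groups. The effect of oxaliplatin on Cd3e differed between the tissues, with a kidney effect minus marrow effect of −1.18 on the log2 scale (adjusted p = 0.0137). For Cd28 the same difference was −1.48 (adjusted p = 0.0407). Cd28 had 0 to 8 counts per kidney library, below the kidney filter, and its adjusted p was above 0.05 with a replicate block (0.0789), without the filter (0.0612) and in 11 of 20 fits with 1 library left out.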

How the results depend on the processing

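The vehicle difference between the tissues kept its direction and its adjusted p under 0.05 in all 24 alternatives for the 6 T cell genes tested in both tissues. In marrow, no T cell gene was called in the analysis as reported, against 2 with DESeq2, 2 with scaling by library size alone, 1 with DESeq2 size factors in edgeR and 1 without hemoglobin genes, and 0 to 2 with 1 library left out. The 2 genes with an adjusted p under 0.05 became 1 with DESeq2 size factors or without hemoglobin genes, 0 without the filter or with the Y-linked covariate, and 0 to 3 with 1 library left out. Counts over all genes became 2730 of 5221 in marrow and 454 of 2216 in kidney when tested against 1.5-fold, and 4725 to 5727 and 1761 to 2424 with 1 library left out. In kidney, both counts of T cell genes were 0 to 1 with 1 library left out. The 2 interactions under the threshold (Cd3e, Cd28) became 1 without the filter (Cd3e) and 1 to 3 with 1 library left out, and the 6 ratios 3 to 9. Library size alone gave Tcf7 at 0.05 and Foxp3 at 0.04 in marrow and the Lck interaction at 0.02, and TMM within each tissue gave that interaction at 0.04. Scaling by library size alone also moved the share of calls that were higher from 49.6% to 63.4% in marrow and from 66.8% to 82.7% in kidney. The cause of these changes was not tested.

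Signs changed with 1 library left out for Tcf7 (−0.25 to 0.04) and Foxp3 (−0.27 to 0.10) in marrow, for the interactions of Lck (−0.18 to 0.14), Cd3d (−0.19 to 0.57) and Cd8b1 (−0.15 to 0.75), and for the ratios to Cd3e of Cd3g in marrow (−0.06 to 0.15) and Cd8a in kidney (−0.51 to 0.14).

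Control and treated mice with the same replicate number did not deviate together within a tissue (correlations of −0.118 to 0.228 in marrow and −0.154 to 0.075 in kidney). No pairing by number was thus seen in these values, which cannot exclude a shared cage or day. Whether same-numbered kidney and marrow libraries share a mouse was not covered by these correlations. With a replicate block, the T cell genes with an adjusted p under 0.05 in marrow became 0, the interactions 1 and the ratios 0, where sign flips of 5 pairs cannot give a p below 0.0625. In kidney, 4 of 10 T cell genes had too few counts for the filter.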

Other observations

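Outside the 10 T cell genes, the genes whose levels followed Cd3e most closely from mouse to mouse differed between the tissues. The other T cell genes of the 10 were left out of this ranking, as were genes with a mean log2 CPM below 0. After subtraction of group means from the log2 CPM of 10 mice, the 5 genes with the highest Pearson r in marrow, among 17699 compared, were Arap2 (0.956), Gpr18 (0.955), Ikzf3 (0.954), Timm10b (0.950) and Cd2 (0.948). Gpr18, Ikzf3 and Cd2 are known in lymphocytes. In kidney, among 15989 genes, they were Csnk2a1 (0.942), Faf2 (0.922), Sash1 (0.921), Hs3st1 (0.897) and Smpd4 (0.887). These values are the highest of many over few mice, and the points share library, depth and scaling.

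All 20 libraries held transcripts of Y-linked genes, summing to between 77.5 and 173 CPM, with Xist at 0 to 2.88 CPM, while the methods state that male and female mice were used.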
